A study of Mus musculus with 18 samples.

Results

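The aryl hydrocarbon receptor pathway was followed through 6 genes of the infarcted mouse heart, namely Ahr, Arnt, Ahrr, Cyp1a1, Cyp1b1 and Tiparp. These encode the receptor, its DNA-binding partner, its repressor and 3 proteins whose genes the receptor switches on. They were 6 of the 24419 gene symbols in the expression table and were chosen by name, with Cyp1a1 having been seen among the deepest falls from 6 h after infarction. The values that chose Cyp1a1 are therefore given as a description, without a test. Expression was measured in FPKM, which counts sequenced fragments relative to transcript length and library size. A total of 13333 symbols reached an FPKM of 1 in 1 or more mice, among them 5 of the 6 genes, which all stood above 1 in every sham mouse as well. Ahrr stayed under 1 in every mouse.

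The series holds 18 male C57BL/6 mice, 8 weeks old, all anaesthetised with sodium pentobarbital at 50 mg/kg. In 5 groups of 3 mice the proximal left anterior descending coronary artery was tied off, and the hearts were taken 10 min, 1 h, 6 h, 24 h or 72 h later. A further group of 3, named Control in the labels and sham in the study, gave the reference, but neither its operation nor the time of day of collection is described in the sources used here. PolyA RNA came from left ventricle tissue, infarcted in the ligated mice. A lower value in this bulk tissue cannot separate fewer cells of a type from less RNA per cell.

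The aryl hydrocarbon receptor (AHR) is a transcription factor of the bHLH-PAS family that is activated by small molecules, including dioxins, plant indoles and breakdown products of tryptophan. It waits in the cytoplasm bound to partners that include the chaperone HSP90 and the p23 protein. Once a ligand binds, it enters the nucleus, pairs with ARNT and reads short DNA elements around the letters GCGTG. Its classical targets are the cytochrome P450 genes Cyp1a1 and Cyp1b1, whose enzymes break down many of the same ligands. Its targets Ahrr and Tiparp close feedback loops, since AHRR competes for ARNT and TIPARP, an ADP-ribosyltransferase, marks the receptor for destruction. In the heart, Cyp1a1 is best known from the endothelium, and Cyp1b1 is widely found in stromal cells.

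The promoters of the target genes are shown because they carry the letters that AHR and ARNT read. They come from RefSeq on GRCm38.p6, run 5′ to 3′ on the strand of the gene, and cover 250 bases before to 50 after the annotated start. Capitals mark GCGTG, or CACGC where the match lies on the opposite strand. The windows are chr9:57697363-57697662 on the plus strand for Cyp1a1, chr17:79715012-79715311 on the minus strand for Cyp1b1, chr3:65528197-65528496 on the plus strand for Tiparp and chr13:74292282-74292581 on the minus strand for Ahrr.
Cyp1a1: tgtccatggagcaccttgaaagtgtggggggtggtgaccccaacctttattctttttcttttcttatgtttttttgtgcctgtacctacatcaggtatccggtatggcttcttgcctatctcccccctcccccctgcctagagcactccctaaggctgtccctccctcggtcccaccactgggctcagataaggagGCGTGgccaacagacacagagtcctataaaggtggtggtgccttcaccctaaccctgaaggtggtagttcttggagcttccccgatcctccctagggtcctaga
Cyp1b1: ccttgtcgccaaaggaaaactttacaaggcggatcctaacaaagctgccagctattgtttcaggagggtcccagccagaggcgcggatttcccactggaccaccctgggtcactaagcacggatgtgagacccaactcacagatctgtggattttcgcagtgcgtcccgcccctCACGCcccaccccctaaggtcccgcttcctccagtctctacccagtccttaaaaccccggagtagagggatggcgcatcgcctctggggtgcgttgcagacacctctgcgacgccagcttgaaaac
Tiparp: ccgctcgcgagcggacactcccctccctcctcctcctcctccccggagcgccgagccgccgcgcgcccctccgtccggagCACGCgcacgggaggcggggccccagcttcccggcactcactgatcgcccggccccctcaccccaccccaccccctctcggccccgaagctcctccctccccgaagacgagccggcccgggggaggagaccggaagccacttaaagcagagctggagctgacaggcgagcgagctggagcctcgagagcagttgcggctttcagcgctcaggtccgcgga
Ahrr: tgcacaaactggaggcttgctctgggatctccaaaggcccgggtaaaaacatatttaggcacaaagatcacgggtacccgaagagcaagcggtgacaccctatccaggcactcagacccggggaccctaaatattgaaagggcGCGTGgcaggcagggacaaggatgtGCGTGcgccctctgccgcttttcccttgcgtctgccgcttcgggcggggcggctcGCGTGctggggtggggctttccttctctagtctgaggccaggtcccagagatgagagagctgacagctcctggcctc

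The Cyp1a1 window held GCGTG once, 54 bases before the start, and the letters TATAAA 30 bases before it. Cyp1b1 held 1 match 76 bases before the start and Tiparp 1 match 170 bases before it, both on the opposite strand. Ahrr held 3, at 107, 82 and 27 bases before the start. Distances run to the first printed base of each match. The Arnt window, chr3:95434140-95434439 on the plus strand, held 1 match 29 bases before the start, so all 5 genes with a window in the table had the letters. They also occurred, on either strand, in 32.4% of all 32851 promoter windows of this length, and TATAAA occurred in 13.6%. A longer form, TNGCGTG, was in 5.07% of all windows and, among these genes, in Ahrr alone, where it overlapped a GCGTG match. These matches describe letters, not binding.

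In the GENCODE M21 annotation of mm10 the genes lie at chr12:35497974-35535038 (Ahr, minus strand), chr3:95434388-95497240 (Arnt, plus), chr13:74211118-74292331 (Ahrr, minus), chr9:57687928-57703824 (Cyp1a1, plus), chr17:79701537-79715061 (Cyp1b1, minus) and chr3:65528410-65555518 (Tiparp, plus). Tiparp shares 223 exonic bases with 4931440P22Rik on the other strand, a gene listed at 0.425 to 2.05 FPKM. Ahr shares 127 exonic bases with Gm48236, also on the other strand. Whether reads were assigned by strand is not stated, so reads from those stretches cannot be told apart.

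The table holds no read counts. FPKM values summed to between 542418 and 600467 per mouse, and the step between the lowest values gave a depth of 0.813 to 1.32 times that of the first sham mouse. The third 24 h mouse lay farthest from its group mates, at a root mean square log2 distance of 0.469 against a lowest value of 0.176 in the series. Across all genes the median log2 difference from sham was 0.13 at 24 h and 0.29 at 72 h, and 0.02 and 0.04 once the libraries were scaled by the median of ratios. Calls at 24 and 72 h that such scaling or quantile normalization ended or turned are named beside their values.

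Of the 4 genes tested against sham, namely Ahr, Arnt, Cyp1b1 and Tiparp, none changed at 10 min or 1 h. At 6 h, 3 did, Cyp1b1 and Tiparp rising and Ahr falling. At 24 h none passed the test, and at 72 h all 4 did. The test was limma on log2(FPKM + 1) with Benjamini-Hochberg adjustment across every gene in the fit, and a call needed an adjusted p under 0.05. The share of all genes called was 0.346% in the 10 min comparison and 0.722% in that of 1 h. It was 28.3% at 6 h, rose to 37.6% at 24 h and reached 77.3% at 72 h, so 4 of 4 at 72 h stands near the background. Without sham mouse 1, 2 or 3 the share was 12.3%, 13.8% or 13.0% at 6 h and 12.2%, 12.9% or 15.9% at 24 h. At 72 h it stayed between 72.8% and 76.4% with any 1 mouse left out, at 1 h it was 1.33% without 1 h mouse 3, and at 10 min it was 0 without the third 10 min mouse 0.196% without the second, and 0.0226%, 0.0602% or 0.0226% without sham mouse 1, 2 or 3. An unadjusted p under 0.05 was reached by 1955 genes at 10 min and 1673 at 1 h, Tiparp at 1 h among them.

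**Figure D1:**
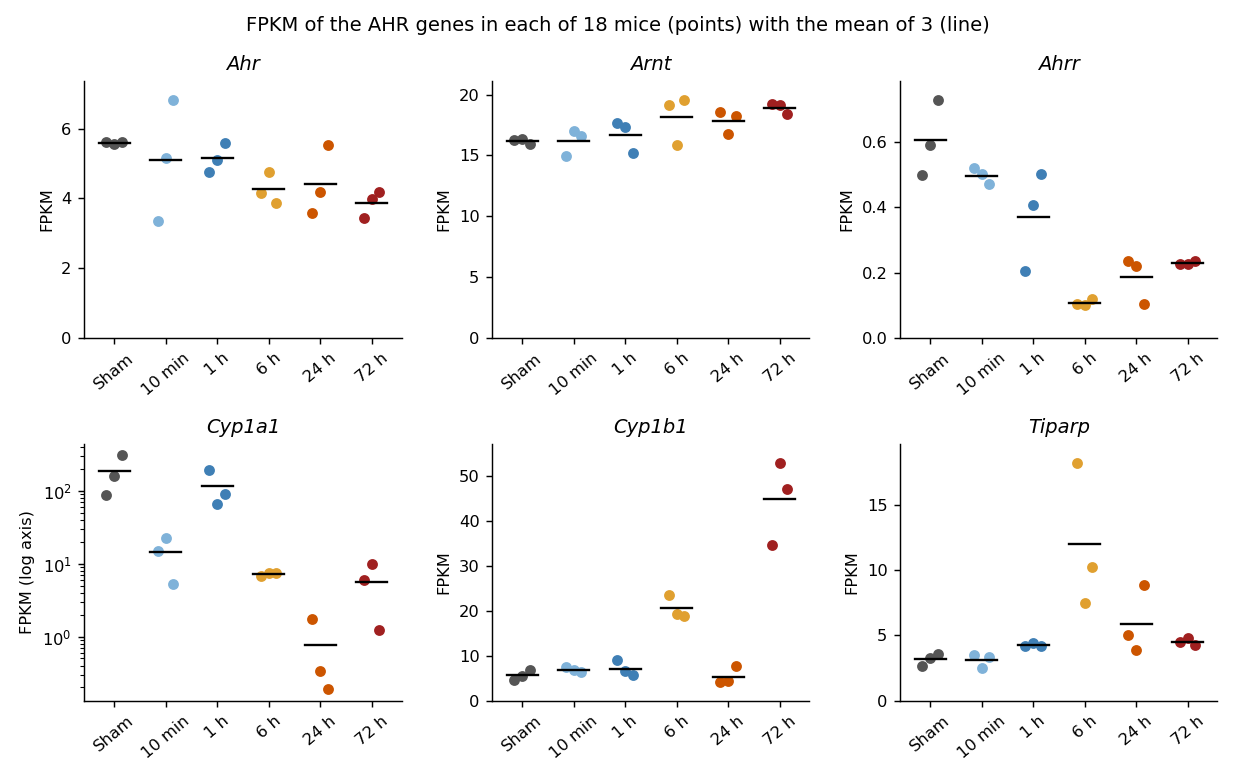
FPKM of the 6 genes in each of the 18 mice (points, vertical axis, logarithmic for Cyp1a1) by group (horizontal axis), with a line at the mean of 3 mice. Cyp1a1 is low at 10 min and from 6 h on, Cyp1b1 is high at 6 and 72 h but not at 24 h, and Tiparp is highest at 6 h.

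Ahr, the receptor itself, was expressed at a modest level that was lowest at 72 h. The sham mice stood at 5.62, 5.56 and 5.62 FPKM. The values were 3.35, 5.15 and 6.82 at 10 min and 4.75, 5.09 and 5.61 at 1 h, then 4.16, 4.76 and 3.87 at 6 h. They were 3.57, 4.17 and 5.52 at 24 h and 3.45, 3.97 and 4.19 at 72 h. All mice from 6 h on lay below all sham mice, while the 10 min mice spread to both sides of them. Groups lay apart in this direction for 30.2% of all genes at 6 h, for 18.9% at 24 h and for 25.4% at 72 h. In order of mean the groups ran sham, 1 h, 10 min, 24 h, 6 h and 72 h, and each pair of neighbours overlapped.

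At 72 h Ahr fell from 5.60 ± 0.0369 to 3.87 ± 0.380 FPKM (SD, n = 3 each), 1.45-fold, with a log2 fold change of -0.44 (SE 0.083, limma adjusted p = 0.00115). Against the median of all genes this was -0.73. The 72 h value was -0.69 after median-of-ratios scaling and -0.96 after quantile normalization (adjusted p = 4.65e-05 and 1.09e-05). The call at 6 h was weaker, with a log2 fold change of -0.33 (SE 0.098, limma adjusted p = 0.0427). It was lost without sham mouse 1, 2 or 3 (adjusted p = 0.134, 0.119 and 0.131) and without 6 h mouse 1 or 3 (0.0780 and 0.0695). At 24 h the log2 fold change was -0.30 (SE 0.14, limma adjusted p = 0.132), and without the third 24 h mouse it was -0.44 (adjusted p = 0.0136). The same pair of scalings gave -0.42 and -0.52 at 24 h, both called (adjusted p = 0.0389 and 0.0154). Ahr passed the test in none of the comparisons between successive times.

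Arnt, the partner shared by AHR and the hypoxia-inducible factors, had the smallest ratio of highest to lowest group mean of the 6. It stood at 16.3, 16.4 and 16.0 FPKM in the sham mice, 15.0, 17.0 and 16.6 at 10 min and 17.7, 17.3 and 15.2 at 1 h. Later values were 19.1, 15.9 and 19.5 at 6 h, then 18.5, 16.8 and 18.2 at 24 h, with 19.2, 19.2 and 18.4 at 72 h. The 24 h and 72 h mice lay above all sham mice, an arrangement that 39.3% of all genes showed at 24 h and 55.1% at 72 h. The order of means was 72 h, 6 h, 24 h, 1 h, sham and 10 min, with every neighbouring pair overlapping. At 72 h Arnt was called higher as deposited, with a log2 fold change of 0.21 (SE 0.060, limma adjusted p = 0.0108), but it was -0.08 after median-of-ratios scaling and -0.13 after quantile normalization, neither of them called. Its log2 fold changes at the other times lay between -0.003 and 0.15 and were not called.

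Ahrr, the repressor and itself a target of the receptor, was the scarcest. It was listed at 0.498, 0.590 and 0.729 FPKM in the sham mice and at 0.520, 0.502 and 0.470 at 10 min. At 1 h the values were 0.204, 0.406 and 0.503, and at 6 h they were 0.103, 0.101 and 0.118. The 24 h mice stood at 0.236, 0.219 and 0.105, and the 72 h mice at 0.227, 0.225 and 0.234. Every mouse from 6 h on lay below every sham mouse, and the 1 h mice ran from sham-like values down to 0.204. Among genes that reached an FPKM of 1, groups lay below sham in this way for 30.2% at 6 h, 18.9% at 24 h and 25.4% at 72 h. The order of means was sham, 10 min, 1 h, 72 h, 24 h and 6 h, and neighbours in that order overlapped.

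Mean Ahrr was 5.66-fold lower than sham at 6 h, 3.25-fold lower at 24 h and 2.65-fold lower at 72 h. Being under an FPKM of 1 throughout, it entered only the fit without a filter on low values, where the pseudocount of 1 shrinks its fold changes. There it fell at 6 h (log2 fold change -0.53, SE 0.057, limma adjusted p = 0.00467), at 24 h (-0.44, SE 0.071, adjusted p = 0.0149) and at 72 h (-0.38, SE 0.056, adjusted p = 0.00109). Of all genes in that fit, 10.7%, 7.14% and 18.2% were called lower at these times. At 10 min and 1 h Ahrr was not called (adjusted p = 0.585 and 0.464), nor was it between 1 h and 6 h (adjusted p = 0.0619).

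Cyp1a1, the classical readout of AHR activity, had the widest range of the 6. Its sham values were 87.3, 160 and 304 FPKM, a mean of 184 ± 110.5 (SD, n = 3) that exceeded the mean of 96.7% of the genes tested. At 10 min the mice stood at 15.0, 22.6 and 5.27, and at 1 h at 189, 65.1 and 90.8. The 10 min mice were all below the sham mice, whereas the 1 h mice lay among them. The 6 h mice held 6.74, 7.33 and 7.45. The 24 h mice held 1.74, 0.341 and 0.192, a mean above that of just 7.99% of the genes tested. The 72 h mice held 5.96, 9.73 and 1.23. From 6 h on every mouse was below every sham mouse, as for 30.2%, 18.9% and 25.4% of all genes at 6, 24 and 72 h.

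Mean Cyp1a1 was 12.9-fold lower than sham at 10 min, 1.60-fold lower at 1 h, 25.6-fold lower at 6 h, 242.6-fold lower at 24 h and 32.6-fold lower at 72 h. The 24 h mean rests on mouse 1, without which it was 0.267 FPKM and 690.0-fold below sham. Without the third sham mouse, the highest, the 24 h fold was 163, and the 72 h fold was 51.2 without the second 72 h mouse. On the log2(FPKM + 1) scale the differences were -3.62, -0.64, -4.32, -6.64 and -4.89. Among all genes this was the lowest value at 6, 24 and 72 h, the second lowest at 10 min and the 43rd lowest at 1 h. The values from 6 h on are those the gene was chosen by, and the sham mice are shared by all 5, so no test is given. At 10 min, 8.15% of all genes had all 3 mice below all sham mice. The order of means was sham, 1 h, 10 min, 6 h, 72 h and 24 h. Of the neighbours, sham and 1 h, 10 min and 6 h, 6 h and 72 h, and 72 h and 24 h overlapped, and 1 h and 10 min did not.

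Cyp1a1 was chosen for its falls from 6 h, and the 1 h and 10 min mice, which are not those mice, were compared directly. Earlier results of these data were known at the choice, so the test is not fully independent of it. Mean Cyp1a1 was 8.06-fold higher at 1 h, 115 ± 65.4 against 14.3 ± 8.67 FPKM (SD, n = 3 each), and all 3 mice at 1 h were above all 3 at 10 min. The log2 fold change was 2.98 (SE 0.52), and the limma adjusted p of 0.0692 missed the threshold (unadjusted p = 0.000536). In this comparison 0.602% of all genes were called (0.278% without 10 min mouse 3, and 0.316% or 0.286% without 1 h mouse 1 or 2) and 6.19% lay apart in the same direction. The adjusted p was 0.0391 where genes had to reach a mean FPKM of 1 and 0.0426 in 1 fit over all 18 mice. Under the remaining processing alternatives Cyp1a1 was not called, with adjusted p up to 0.170. With any 1 mouse left out it was not called either, with adjusted p from 0.0746 to 0.173.

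Markers of heart cells were followed beside Cyp1a1. Summed endothelial markers overlapped the sham range in every group, and summed cardiomyocyte markers lay below the sham range at 24 and 72 h alone. Summed FPKM of 10 endothelial markers ran from 863 to 967 in the sham mice, from 895 to 1027 at 10 min and from 876 to 930 at 1 h. It ran from 924 to 1147 in the 6 h mice, from 767 to 910 in the 24 h mice and from 746 to 912 in the 72 h mice. Among the 10 markers none was called at 10 min. At 6 h 1 was called higher and 3 lower, at 24 h 4 were called lower, and by 72 h 1 was higher and 5 lower. The shares of 4, 4 and 6 of 10 compare with 28.3%, 37.6% and 77.3% of all genes. Their median log2 fold change at 24 h was -0.28. Summed cardiomyocyte markers ran from 49369 to 52841 in the sham mice, 47229 to 49427 at 10 min and 17622 to 21924 at 72 h. The part of these cells in the Cyp1a1 values was not tested.

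Markers of organs rich in Cyp1 enzymes were nearly absent. The lung epithelium markers summed to at most 0.432 FPKM in any mouse, with Sftpc, Sftpa1 and Sftpd at 0 in all 18, and the liver markers to at most 0.459.

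**Figure D2:**
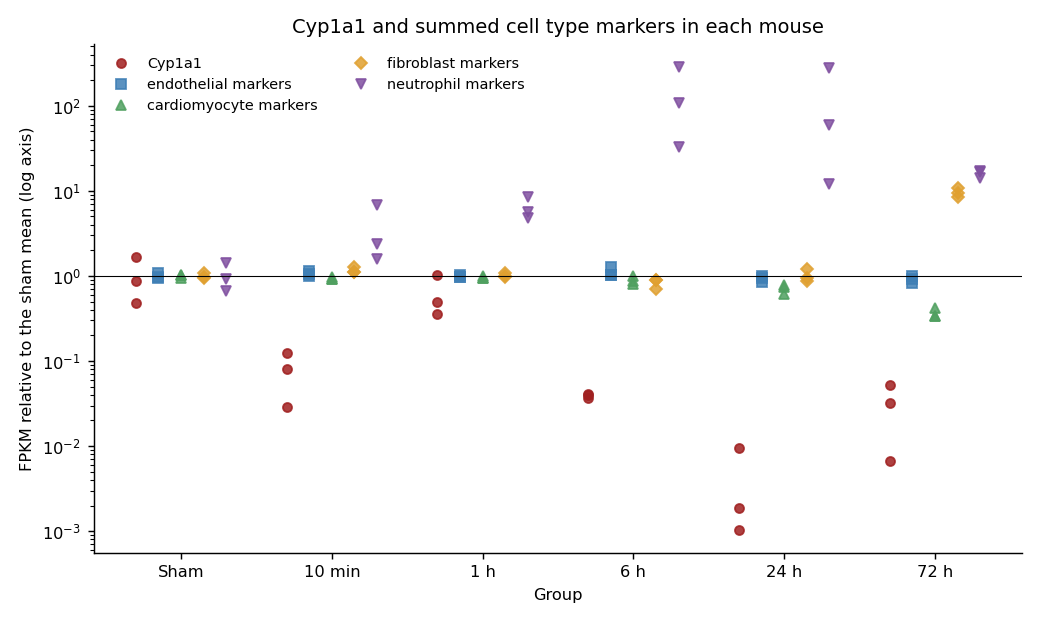
Cyp1a1 and the summed FPKM of endothelial, cardiomyocyte, fibroblast and neutrophil markers in each mouse, divided by the sham mean (vertical axis, logarithmic), by group (horizontal axis). Endothelial sums run from 746 to 1147 FPKM over all mice, and Cyp1a1 lies below its sham mean in every mouse at 10 min and from 6 h on.

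Some genes of the circadian clock differed from sham at 10 min, as did Cyp1a1. Arntl, whose protein BMAL1 drives the clock with CLOCK and is of the same protein family as AHR and ARNT, stood at 0.495, 0.344 and 0.327 FPKM in the sham mice and at 4.56, 2.67 and 3.34 at 10 min. At 1 h it was back at 0.964, 0.358 and 0.479. Arntl stayed under 1 FPKM in the sham mice and entered the fit through infarcted mice alone, so its levels are a description, with no test. Clock was called higher at 10 min, by a log2 fold change of 0.65 (SE 0.080, limma adjusted p = 0.0369), when 0.346% of all genes were called. That call was lost without any 1 of the sham mice or the third 10 min mouse, with adjusted p up to 0.141. A set of 7 genes under the clock's control, Dbp, Ciart and members of the Per and Nr1d families, summed to 283 to 290 FPKM in the sham mice, 170 to 254 at 10 min, 163 to 282 at 1 h and 43.1 to 60.7 at 72 h. At 10 min 2 of the 7 were called lower and 5 were not called. The part of the clock in the Cyp1a1 values was not tested.

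Cyp1b1, the second P450 target, took a different course, with peaks at 6 and 72 h. The sham mice stood at 4.59, 5.50 and 6.82 FPKM, the 10 min mice at 7.46, 6.71 and 6.31 and the 1 h mice at 9.09, 6.69 and 5.61. At 6 h the values were 23.6, 19.2 and 18.9. At 24 h they were 4.13, 4.35 and 7.60, and at 72 h they were 34.8, 53.1 and 47.1. The 6 h and 72 h mice were above all sham mice, as were those of 18.6% and 55.1% of all genes, while the 24 h mice lay around the sham level. The order of means was 72 h, 6 h, 1 h, 10 min, sham and 24 h. Only 72 h and 6 h, and 6 h and 1 h, were neighbours that did not overlap.

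Cyp1b1 rose at 6 h from 5.64 ± 1.12 to 20.6 ± 2.59 FPKM (SD, n = 3 each), 3.65-fold, with a log2 fold change of 1.71 (SE 0.15, limma adjusted p = 0.000659). It rose at 72 h to 45.0 ± 9.31, 7.98-fold, with a log2 fold change of 2.79 (SE 0.17, limma adjusted p = 1.11e-06). Both calls held without any single mouse, with adjusted p up to 0.00632 at 6 h and 1.89e-05 at 72 h. At 24 h the mean of 5.36 ± 1.94 differed from sham by a log2 fold change of -0.09 (SE 0.23, adjusted p = 0.773), and at 10 min and 1 h the values were 0.25 and 0.28 (adjusted p = 0.424 and 0.556).

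The steps between times were tested without the sham mice. Cyp1b1 rose from 1 h to 6 h (log2 fold change 1.42, SE 0.17, limma adjusted p = 0.00326) and from 24 h to 72 h (2.88, SE 0.24, adjusted p = 0.000132). It fell from 6 h to 24 h (-1.80, SE 0.22, adjusted p = 0.0123), where every 24 h mouse was below every 6 h mouse. Of all genes, 20.5%, 43.2% and 14.4% were called in these 3 comparisons. The mice of the groups lay apart in the same direction for 17.8%, 37.3% and 7% of all genes, and 1.94% were called lower from 6 h to 24 h. These shares rest on single mice, since from 1 h to 6 h the share of all genes called was 8.84%, 6.16% or 8.41% without 1 h mouse 1, 2 or 3, and from 24 h to 72 h it was 28.8% without 72 h mouse 3. From 6 h to 24 h it was 1.71%, 0.015% or 0.015% without 6 h mouse 1, 2 or 3 and 0.24% or 8.03% without 24 h mouse 2 or 3. The fall of Cyp1b1 was not called either without 6 h mouse 2 or 3 (adjusted p = 0.0610 and 0.0501) or 24 h mouse 2 (0.0565).

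Fibroblast markers rose at 72 h, and none was called higher at 6 h. Summed fibroblast markers ran from 407 to 473 FPKM in the sham mice, from 303 to 394 at 6 h, from 381 to 533 at 24 h and from 3707 to 4686 at 72 h. All 8 fibroblast markers were called higher at 72 h and Lum, Col1a1, Col1a2 and Col3a1 were called lower at 6 h. Of all genes, 77.3% were called at 72 h and 28.3% at 6 h, in either direction. Pdgfra, Tcf21 and Dcn had 6 h log2 fold changes of 0.22, 0.14 and -0.06, not called, and Dpt was not called either. The median of the 8 at 6 h was -0.45, against -0.08 for all genes. Summed mural cell markers ran from 314 to 370 in the sham mice, 239 to 304 at 6 h and 642 to 837 at 72 h, when 4 of the 7 were called higher and 3 lower. Macrophage markers ran from 191 to 217 in the sham mice, 155 to 335 at 6 h and 3452 to 4579 at 72 h. The part of these cells in the Cyp1b1 values was not tested.

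Tiparp, the feedback ADP-ribosyltransferase, peaked at 6 h. It stood at 2.66, 3.26 and 3.61 FPKM in the sham mice, 3.50, 2.51 and 3.38 at 10 min and 4.21, 4.42 and 4.18 at 1 h. The 6 h mice held 18.3, 7.50 and 10.3, the 24 h mice 5.01, 3.87 and 8.87, and the 72 h mice 4.47, 4.82 and 4.27. From 1 h on every mouse was above every sham mouse. Of all genes, 7.41% showed this arrangement in the 1 h comparison and 18.6% in that of 6 h. It was more common later, with shares of 39.3% for the 24 h mice and 55.1% for the 72 h mice. The order of means was 6 h, 24 h, 72 h, 1 h, sham and 10 min. Of the neighbours, 1 h and sham alone did not overlap.

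Tiparp rose at 6 h from 3.18 ± 0.480 to 12.0 ± 5.60 FPKM (SD, n = 3 each), 3.79-fold, with a log2 fold change of 1.56 (SE 0.28, limma adjusted p = 0.00784). The call held without any single mouse, with adjusted p up to 0.0364. At 1 h the log2 fold change was 0.34 (SE 0.099) with an unadjusted p of 0.00934 and a limma adjusted p of 0.247. At 24 h it was 0.67 (SE 0.25, adjusted p = 0.0749), and 0.89 (adjusted p = 0.0377) if the second 24 h mouse was left out. At 72 h Tiparp was called higher as deposited, with a log2 fold change of 0.41 (SE 0.10, adjusted p = 0.00577), but the value was 0.16 after median-of-ratios scaling and -0.12 after quantile normalization, neither called, and the 72 h call was also lost in 1 fit over all 18 mice (adjusted p = 0.156). From 1 h to 6 h it rose by 1.22 (SE 0.27, adjusted p = 0.0214), a call lost without 1 h mouse 1, 2 or 3 (adjusted p = 0.0666, 0.0730 and 0.0662).

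Neutrophil markers were high in the same 6 h and 24 h mice as Tiparp. Their sum was 997, 116 and 375 FPKM in the 6 h mice 1, 2 and 3 and 209, 42.6 and 965 in the 24 h mice, the same order as Tiparp at both times. The order of the 3 mice differed from that of Tiparp at 1 h and 72 h, where the sums were 29.9, 16.6 and 19.9 and 49.6, 59.1 and 60.2, as well as in the 10 min and sham mice. In the sham mice it ran from 2.32 to 4.99. All 5 neutrophil markers were called higher at 6 h, when 28.3% of all genes were called in either direction. The mouse order of Tiparp at 6 and 24 h was not particular to neutrophil markers. The cytokine gene Il6 and the heat shock gene Hspa1a had it at both times. Summed macrophage markers had it at 6 h but not at 24 h. The part of neutrophils in the Tiparp values was not tested.

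**Figure D3:**
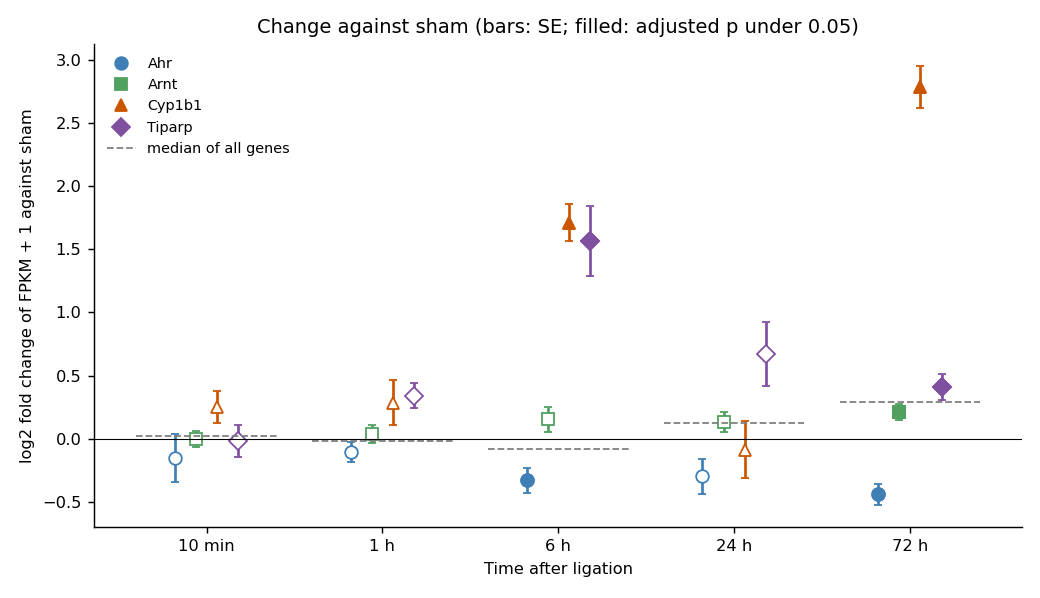
Log2 fold change of FPKM + 1 against sham (vertical axis, bars SE, 3 mice a group) at each time (horizontal axis) for Ahr, Arnt, Cyp1b1 and Tiparp, filled where the adjusted p was under 0.05, with the median of all genes dashed. Cyp1b1 stands at 1.71 at 6 h, falls back to -0.09 at 24 h and stands at 2.79 at 72 h. The small 72 h values of Arnt and Tiparp lie near the median and change sign under quantile normalization.

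The rest of the pathway was described in 4 groups, namely 14 other AHR targets, 3 chaperone genes, 11 bHLH-PAS relatives and coactivators, and 11 enzymes that break down tryptophan into AHR ligands. Of the other targets 10 passed the filter, Serpinb2, Ugt1a6a and Cyp2s1 through infarcted mice alone, and counts are given for the remaining 7. None was called at 10 min. At 6 h 5 were called higher and 1 lower, at 24 h 3 were higher, and at 72 h 4 were higher and 2 lower, beside shares of all genes called of 28.3%, 37.6% and 77.3%. At 6 h the counts were 5 higher and 0 lower under median-of-ratios scaling, and 4 and 0 under quantile normalization. Nqo1 lost its 6 h call under both (limma adjusted p = 0.105 and 0.0607) and Xdh under quantile normalization (0.0547). Under both median-of-ratios scaling and quantile normalization the counts were 2 higher at 24 h, and 2 higher and 3 lower at 72 h. There Nfe2l2 lost its 24 h call, Gsta1 and Nfe2l2 lost their 72 h calls, and Abcg2 was lower at 72 h (-0.36 and -0.34, adjusted p = 0.00410 and 0.00525). The median log2 fold changes of the 7 were 0.39, 0.35 and 0.42 at 6, 24 and 72 h, against -0.08, 0.13 and 0.29 for all genes. As deposited, the 6 h total was 1 without sham mouse 1, 2 or 3 or 6 h mouse 3, and 3 without 6 h mouse 1, where it had been 6.

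Slc7a5, the transporter that carries tryptophan and kynurenine into cells, had the largest log2 increase of the 10 at 6, 24 and 72 h. From 3.22 ± 0.428 FPKM in the sham mice it rose to 16.7 ± 4.06 at 6 h, with 24.1 ± 12.3 in the 24 h mice and 14.5 ± 4.32 in the 72 h mice (SD, n = 3 each). Its log2 fold changes were 2.05, 2.47 and 1.85 (limma adjusted p = 0.000600, 0.00380 and 1.80e-05), and the 6 h call held without any single mouse. Nedd9, a focal adhesion scaffold, was at 1.05 at 6 h and 1.14 at 72 h (adjusted p = 0.0437 and 0.000758). Nqo1, a quinone reductase, fell by 0.83 on the log2 scale at 72 h, from 28.2 ± 2.63 to 15.4 ± 1.88 FPKM (adjusted p = 8.74e-05). Xdh, the source of uric acid, was at 0.51 at 6 h and -0.76 at 72 h (adjusted p = 0.0394 and 9.79e-05). The 6 h calls of Nedd9 and Xdh were lost without any 1 of the sham mice, with adjusted p up to 0.127 and 0.133. That of Xdh was also lost under quantile normalization (adjusted p = 0.0547). Serpinb2, a plasminogen activator inhibitor, reached 1.89 ± 0.588 FPKM at 72 h, and Ugt1a6a, a glucuronidating enzyme, 1.06 ± 0.383.

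Cyp1a2, the neighbouring P450 gene, was listed at 0 in 16 mice and at 0.0117 and 0.0150 FPKM in the other two. Aldh3a1, Gsta2 and Ugt1a6b also stayed under 1 in every mouse.

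All 3 chaperone genes passed the filter. At 6 h 1 was called higher and at 24 h 2 were, and by 72 h the counts were 2 higher and 1 lower. Of all genes, 28.3%, 37.6% and 77.3% were called at these times. Hsp90aa1, the stress-inducible HSP90, rose from 56.1 ± 6.71 FPKM in the sham mice to 131 ± 52.8 at 6 h, then 146 ± 33.5 at 24 h and 152 ± 27.7 at 72 h, by log2 fold changes of 1.15, 1.35 and 1.41 (limma adjusted p = 0.0148, 0.00387 and 1.76e-05). The 6 h call was lost without sham mouse 1 or 2 (adjusted p up to 0.0567). Hsp90ab1, the constitutive form, fell by 0.28 at 72 h (adjusted p = 0.00870), or by 0.59 after median-of-ratios scaling. Ptges3, which encodes p23, was at 0.43 at 24 h and 0.45 at 72 h (adjusted p = 0.0250 and 0.000872). Neither call held after median-of-ratios scaling (0.29 and 0.15) or quantile normalization (0.24 and 0.13). The 24 h count was 1 without any 1 of the sham mice.

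All 11 relatives and coactivators passed the filter, Arnt2, Arntl, Hif3a and Npas2 through infarcted mice alone, and counts are given for the remaining 7. At 6 h Hif1a alone was called, although 2 were called without 6 h mouse 2 and 3 without 6 h mouse 3. At 24 h 2 were higher and 1 was lower, and by 72 h 4 were higher and 2 lower, against shares of 37.6% and 77.3% for all genes. Scaling turned the balance at 24 h, to 1 higher and 4 lower under both methods, as Clock was lost (adjusted p = 0.0627 and 0.0767) and the coactivators Ncoa1, Ncoa2 and Ncoa3 were called lower (-0.32 to -0.39 after median-of-ratios scaling). At 72 h the counts became 3 higher and 3 lower under median-of-ratios scaling and 2 and 3 under quantile normalization. Hif1a, the hypoxia factor that also pairs with ARNT, rose from 11.7 ± 0.620 FPKM to 26.9 ± 8.49 at 6 h, then 25.4 ± 9.92 at 24 h and 32.9 ± 4.14 at 72 h, by log2 fold changes of 1.09, 0.99 and 1.41 (limma adjusted p = 0.00952, 0.0197 and 2.28e-06). Epas1, its endothelial relative, fell by 0.52 at 24 h and 1.44 at 72 h, from 118 ± 4.62 to 82.7 ± 7.94 and 43.3 ± 4.74 FPKM (adjusted p = 0.00933 and 1.19e-06). Arntl reached 10.1 ± 0.828 FPKM at 72 h. Ncoa3 and Arntl2, both called higher at 72 h, turned to -0.09 and -0.06 after quantile normalization. The 24 h total of 3 was 1 without any 1 of the sham mice.

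Of the tryptophan enzymes 3 passed the filter, none was called at 6 h, and all 3 were called lower at 24 h and 72 h. Of all genes, 28.3%, 37.6% and 77.3% were called in either direction at these 3 times. Counted over both directions, 3 of 3 at 72 h stands near the background. Called lower were 1516 of 13327 genes at 24 h and 3226 of 13329 at 72 h. Ccbl1 and Ccbl2, older symbols of the kynurenine aminotransferases Kyat1 and Kyat3, fell from 17.7 ± 0.678 and 18.0 ± 0.512 FPKM in the sham mice to 6.22 ± 1.35 and 6.67 ± 0.608 at 72 h, by 1.39 and 1.31 on the log2 scale (limma adjusted p = 1.72e-05 and 1.07e-06). Afmid, which makes kynurenine from its formyl form, fell by 0.60 at 24 h and 0.42 at 72 h (adjusted p = 0.00775 and 0.00301), the latter becoming -0.62 after median-of-ratios scaling and -0.96 after quantile normalization. The 24 h call of Ccbl1 was lost without any 1 of the sham mice, with adjusted p up to 0.0734. The other 8, among them the first enzymes of the path, Ido1, Ido2 and Tdo2, stayed under 1 FPKM in every mouse. Il4i1, an amino acid oxidase of immune cells, was listed at 0.702, 0.287 and 0.378 at 72 h against at most 0.0263 in the sham mice.

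**Figure D4:**
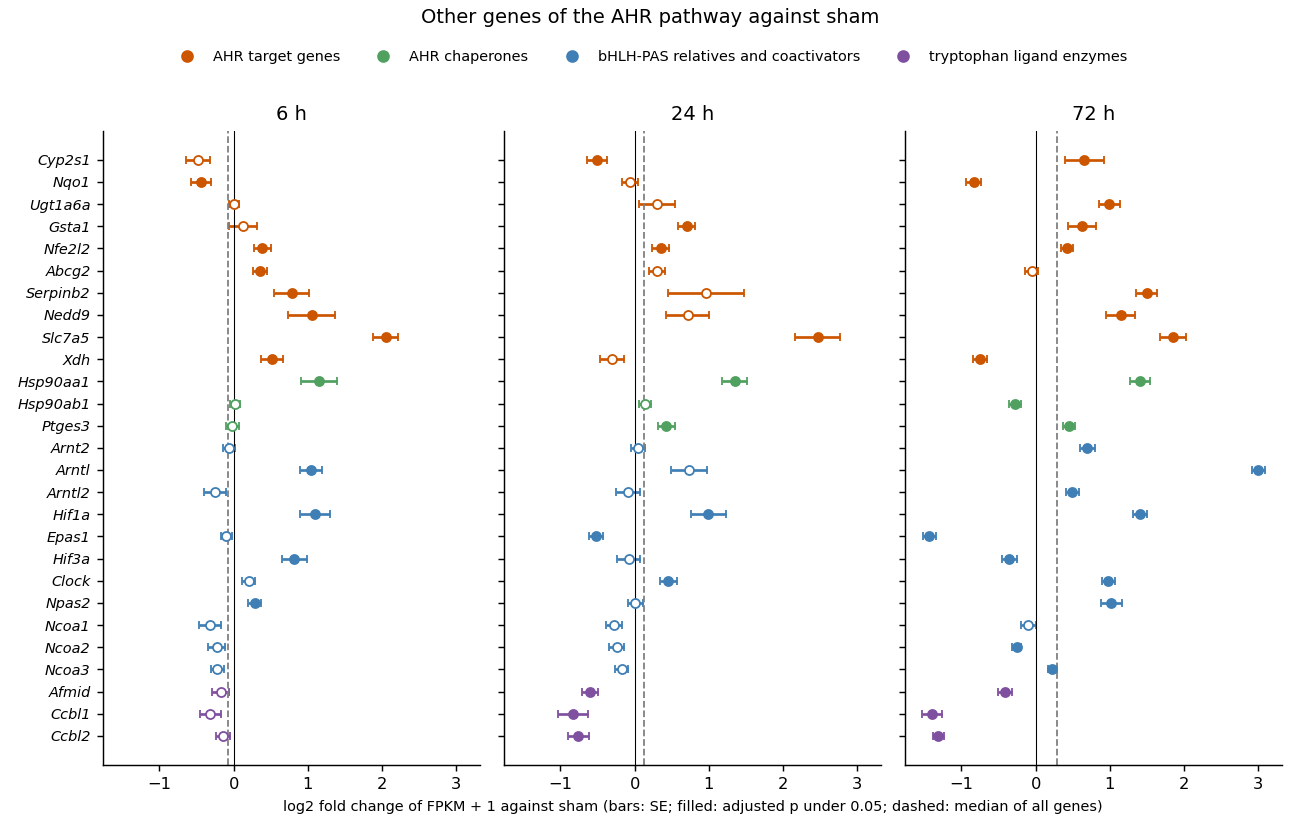
Log2 fold change of FPKM + 1 against sham (horizontal axis, bars SE, 3 mice a group) for the other AHR pathway genes that passed the filter (vertical axis, coloured by group of genes) at 6, 24 and 72 h, filled where the adjusted p was under 0.05, with the median of all genes dashed. Genes under 1 FPKM in all sham mice (Serpinb2, Ugt1a6a, Cyp2s1, Arnt2, Arntl, Hif3a, Npas2) are plotted but not counted. Slc7a5 and Hsp90aa1 lie to the right at all 3 times and the 3 tryptophan enzymes to the left at 24 and 72 h, and Arntl2 and Ncoa3 at 72 h change sign under quantile normalization.

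For each of the 6, the 5 genes of highest Pearson r of log2(FPKM + 1) over the 18 mice were listed, among about 11492 genes with a mean FPKM of at least 1. The mice fall into 6 groups of 3 and share their libraries, so r describes the course over the groups, and no p is given. Tiparp was most like Il6, an inflammatory cytokine (r = 0.96), followed by the heat shock genes Hspa1a and Hspa1b, Pde4b and Hdc. Mean Il6 was 0.00570 FPKM in the sham mice, 8.40 at 6 h and 2.07 at 24 h, and mean Hspa1a was 2.73, 179 and 19.5. Cyp1b1 was most like Serpina3g (r = 0.96), Plagl1, Cd302, Id3 and Rhoj. Mean Serpina3g was 0.151 FPKM in the sham mice, 1.45 at 6 h, 0.197 at 24 h and 5.08 at 72 h, the same drop at 24 h as in Cyp1b1.

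Cyp1a1 had no gene as close. Its highest values were with Meig1 (r = 0.87), Them6, Adh5, Obsl1 and Plxnb1, whose courses were far shallower. Mean Meig1 was 1.97 FPKM in the sham mice, 0.971 at 10 min, 1.65 at 1 h and 0.535 at 24 h, so it dipped at 10 min as well. Ahrr was most like Ky (r = 0.92), Wscd1, Akap5, Tldc1 and Pde8b, and mean Ky was 5.35 FPKM in the sham mice and 0.826 at 6 h. For Ahr the closest were Gba2 (r = 0.80) and AW011738, with Fam135a and Rassf9 also among the first 5, and for Arnt they were Ndst1 (r = 0.86), Socs6, Mpp7, Ern1 and Fndc3b. Of the 30 genes ranked in this way, 7 were also among the 5 closest by Spearman rho.

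Among the 6 themselves, r over the same 18 mice ran from -0.75 between Ahrr and Tiparp to 0.67 between Ahrr and Cyp1a1. The receptor and Cyp1a1 had an r of 0.41, and the 2 P450 genes one of -0.30. At 72 h, mean Cyp1b1 stood at 45.0 FPKM and mean Cyp1a1 at 5.64, whereas in the sham mice they stood at 5.64 and 184.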

How the data were processed

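PolyA RNA from the hearts of 18 mice was sequenced. Per the labels and the study's methods, the authors used cutadapt 1.18 for trimming, HISAT2 2.1.0 for mapping to mm10 and StringTie 1.3.4d for expression, and the annotation is not given in the sources used here. The deposited values are FPKM, 1 per symbol and mouse for 18 mice, and were not scaled further. Groups came from the sample titles. Spreadsheet conversion left 25 symbols as dates, and 4957 symbols were at 0 in all mice.

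Each comparison was fitted on its own 6 mice with limma 3.58.1 in R 4.3.3 on log2(FPKM + 1), with a variance trend, a two-sided moderated test and Benjamini-Hochberg adjustment over all genes that reached an FPKM of 1 in 1 or more of the 18 mice. Fold changes on this scale understate those of low genes. An exact permutation test of 3 against 3 mice cannot go below p = 0.1 and was not used. The fit was tested on simulated data with known changes. Alternatives were other filters, a pseudocount of 0.1, 3 scalings, 1 fit over all 18 mice, no variance trend, the replicate number as a block and leaving out each mouse. Counts of pathway genes over those that reached an FPKM of 1 in a sham mouse were an alternative chosen after seeing the data.

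The genes and lists were chosen with earlier results of these data known. Named were the 6 genes, the 5 genes most like each by Pearson r (leaving out predicted genes, Rik symbols and dates), and up to 6 genes of each pathway list with the largest change among those called at 6, 24 or 72 h, with others of a list by name. The exceptions Il4i1, Ptges3, Ncoa3, Arntl2 and Cyp1a2 were given values after they were seen. The values of Abcg2, Ncoa1 and Ncoa2, those of the markers Pdgfra, Tcf21 and Dcn, and those of the clock output genes also lie outside these rules. Some genes that these rules would name are not reported here. The table gives no read counts, so no counting interval could be set, and precision rests on 3 mice a group.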

Additional observations from a re-analysis of the deposited data

Results flagged for a closer look

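In 4 steps between successive times the groups differed by a direct test, which compares the effects against sham of the earlier and later time without using the sham mice. Cyp1b1 was higher at 6 h than at 1 h by a log2 fold change of 1.42 (limma adjusted p = 0.00326), lower at 24 h than at 6 h by -1.80 (adjusted p = 0.0123) and higher at 72 h than at 24 h by 2.88 (adjusted p = 0.000132). Tiparp was higher at 6 h than at 1 h by 1.22 (adjusted p = 0.0214). The Tiparp call was lost without 1 h mouse 1, 2 or 3 (limma adjusted p up to 0.0730). The fall of Cyp1b1 was lost without 6 h mouse 2 or 3 or 24 h mouse 2 (up to 0.0610). All 3 mice of the later time lay on the same side of all 3 mice of the earlier time in each of the 4. Groups lay apart in the same direction for 17.8% of all genes from 1 h to 6 h, 7% from 6 h to 24 h and 37.3% from 24 h to 72 h. With 3 mice a group, no mouse could be tested for standing apart from its group.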

How the results depend on the processing

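The number called against sham, over Ahr, Arnt, Cyp1b1 and Tiparp and, where it entered the fit, Ahrr, was 0 at 10 min and 1 h under every alternative and 2 to 3 at 6 h. At 24 h it went from 0 to 1 without a filter on low values (Ahrr, which enters only there), under median-of-ratios scaling and quantile normalization (Ahr), and in 1 fit over all 18 mice and with the replicate block (Tiparp), and it was 0 to 1 with 1 mouse left out. At 72 h it went from 4 to 2 under median-of-ratios scaling and under quantile normalization, to 5 without a filter (Ahrr added) and to 3 in 1 fit over 18 mice (Tiparp lost). Between successive times the number covers the same genes, with Cyp1a1 added from 10 min to 1 h. From 10 min to 1 h it went from 0 to 1 with a filter on the mean FPKM and in 1 fit over 18 mice (Cyp1a1). It stayed at 0 under the other alternatives and with any 1 mouse left out. From 1 h to 6 h it was 1 to 2 with 1 mouse left out. From 6 h to 24 h it was 1, became 2 in 1 fit over 18 mice and 0 with the replicate block (Cyp1b1 adjusted p = 0.0682), and was 0 to 1 with 1 mouse left out. From 24 h to 72 h it went from 1 to 2 under quantile normalization (Ahr).

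Uncalled or small log2 fold changes changed sign. Arnt became 0.016 at 10 min with libraries rescaled to 1 sum, -0.0079 and -0.047 in the 24 h comparison, -0.083 and -0.13 in that of 72 h, and -0.075 and -0.084 from 24 h to 72 h under median-of-ratios scaling and quantile normalization. Ahr from 6 h to 24 h became -0.17 and -0.23 under the same pair. Tiparp at 72 h became -0.12 under quantile normalization. With 1 mouse left out, the ranges that crossed 0 were -0.35 to 0.072 for Ahr, -0.036 to 0.049 for Arnt and -0.11 to 0.096 for Tiparp at 10 min, -3.53e-05 to 0.10 for Arnt at 1 h, and -0.33 to 0.045 for Cyp1b1 at 24 h. From 10 min to 1 h they were -0.18 to 0.25 for Ahr, -0.0098 to 0.11 for Arnt and -0.13 to 0.17 for Cyp1b1, from 6 h to 24 h -0.11 to 0.15 for Ahr and -0.11 to 0.031 for Arnt, and from 24 h to 72 h -0.48 to 0.028 for Tiparp. The cause was not tested.

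The call of Ahr at 6 h was also lost without a filter, under median-of-ratios scaling, quantile normalization, 1 fit over 18 mice and the replicate block (adjusted p = 0.0640 to 0.139). The Cyp1a1 difference at 24 h was -8.03 with a pseudocount of 0.1. Over all genes, 1922 were called from 6 h to 24 h, 1 with the replicate block, 771 under median-of-ratios scaling, 628 under quantile normalization, 1107 without a filter and 5850 in 1 fit over 18 mice. At 10 min 46 were called, 1 without a filter, 83 with a filter on the mean, 29 with the block and 8 in 1 fit or without a variance trend. At 1 h 96 were called and 53 in 1 fit, and from 1 h to 6 h 2731 and 1754 with the block. The share of calls that were higher at 72 h was 68.7%, or 52.5% and 43.5% under the same pair of scalings, at 24 h 69.8%, or 52.2% and 45.1%, at 6 h 40.9%, or 56.6% under median-of-ratios scaling, and from 6 h to 24 h 86.6%, or 52.3% and 58.4%. Deviations of same-numbered mice from their group means had correlations of -0.327 to 0.415, and in no comparison were all 3 over 0.1. With 3 mice a group this cannot settle whether the replicate number is a pairing, and the main fit did not use it as one. With TNGCGTG in place of GCGTG, 1 of 5 promoters held the letters, and with Spearman rho 7 of the 30 like genes remained.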
